A study of Mus musculus with 2 samples.

Results

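The genes described here are 9 markers of M2-like, or alternatively activated, macrophages and of scavenger receptor function: Mrc1, Msr1, Marco, Stab1, Cd163, Lyve1, Folr2, F13a1 and Retnla. They are 9 of the 32285 genes listed in the files. The rule was a list of gene names with no threshold on measured values. Their levels were read in C1q macrophages, which are barcodes with at least 5 UMIs (unique molecular identifiers, counted transcripts) of C1qa, C1qb and C1qc together. These cells were divided into Mmp12-high macrophages, with at least 3 UMIs of the matrix metalloproteinase gene Mmp12, and Mmp12-0 macrophages, with 0. Monocytes, with at least 5 UMIs of Ly6c2 and Chil3 together and at most 2 of the C1q genes, were the third class.

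Tumors of RM-1, a line of mouse prostate cancer (PCa) cells, were profiled by scRNA-seq. The line resists the androgen receptor inhibitor enzalutamide (ENZ). A control library was made from 1 mouse given vehicle and an ENZ library from 1 mouse given ENZ, and both mice are labelled WT. The site of these tumors and the strain of these mice are not given in the sources used here for the sequenced libraries. By the methods of the study, the tissue was enriched for immune cells and sorted with a CD45 stain, so that class sizes may also depend on the sort. Both libraries still held many cells of other kinds. Cancer cells, gated without UMIs of Ptprc (the CD45 gene), numbered 917 in control and 1161 in ENZ, and fibroblasts 1013 and 937. With 1 library and 1 mouse per condition, the effect of ENZ and the difference between these mice or libraries cannot be told apart, and there is no test between conditions. All intervals are at 95% and cover counting error only. In total 170830346 UMIs were counted in control, on 2438568 barcodes, and 162030149 in ENZ, on 2239744 barcodes. After limits of at least 1000 UMIs and at most 20% mitochondrial UMIs, 12253 control and 10271 ENZ barcodes were left.

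Tissue macrophages take up damaged cells, modified lipoproteins and proteins through scavenger receptors, which bind many unrelated ligands. Interleukin-4 and related signals drive an alternative program in which macrophages make the mannose receptor, and macrophages that have lived long in a tissue often carry several of the same receptors. In tumors such genes are widely used as markers of M2-like macrophages, although the single genes do not mark the same cells.

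The Mmp12-0 class held 929 control and 578 ENZ cells, with a median of 7263 and 6821.5 UMIs per cell. The Mmp12-high class held 526 control and 170 ENZ cells, with medians of 9965.5 and 8820 UMIs, and the monocytes were 491 control and 1063 ENZ cells, with medians of 4955 and 5152. A further 272 control and 121 ENZ C1q macrophages had 1 or 2 Mmp12 UMIs. The labels were checked on 5 macrophage markers (Lyz2, Adgre1, Cd68, Fcgr1 and Mertk) and 5 monocyte markers (Lyz2, Ccr2, Plac8, Vcan and Fn1). All were above 0 in each of the 3 classes, as they also were in T cells and cancer cells, so that presence alone told nothing apart. Summed, the macrophage markers stood at 4160 CPM in control Mmp12-0 macrophages against 258 CPM in control T cells, and with ENZ at 3349 against 85.2 CPM. Mertk, a receptor for the uptake of apoptotic cells, stood at 111 CPM (UMIs per 1000000) in control Mmp12-0 macrophages and 29.7 CPM in control monocytes, and at 181 against 25.5 CPM with ENZ. Plac8, a gene of circulating monocytes, stood at 2741 CPM in control monocytes against 482 CPM in Mmp12-0 macrophages, and at 1776 against 406 CPM with ENZ. Lyz2, the most abundant of the markers and one of both lists, did not set the classes apart in this way, at 3693 CPM in control Mmp12-0 macrophages and 4647 CPM in control monocytes. With it the summed macrophage markers were higher in control monocytes, at 4916 CPM. The C1q classes kept some monocyte transcripts. After these limits 39 cell barcodes occurred in both libraries, among them 5 cells of the 3 control classes and 5 of the 3 ENZ classes, and the levels were nearly the same without them (log2 ratio of ENZ to control of 1.33 for Mrc1 and 1.45 for F13a1 in Mmp12-0 macrophages).

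Of the 9 genes, 7 matched a RefSeq table of promoters on GRCm38.p6, which gives 250 bases before and 50 bases after each start site. Lyve1 and Msr1 did not. The promoters of Mrc1, Stab1 and F13a1 are printed because Mrc1 was found together with the other 2, in single cells thinned to 1000 UMIs, at the highest ratios of observed to expected cells among pairs with at least 20 expected cells, that of Retnla because it is the textbook target of interleukin-4 signaling, and that of Folr2 because its level hardly differed between the libraries. All run 5′ to 3′ on the strand of the gene. Capitals mark matches on either strand to GAGGAA, a core that the myeloid factor PU.1 can bind, to the STAT6 motif, TTC and GAA with any 4 bases between them, and to TGANTCA, the AP-1 motif.
Mrc1 (chr2:14229164-14229463, plus strand): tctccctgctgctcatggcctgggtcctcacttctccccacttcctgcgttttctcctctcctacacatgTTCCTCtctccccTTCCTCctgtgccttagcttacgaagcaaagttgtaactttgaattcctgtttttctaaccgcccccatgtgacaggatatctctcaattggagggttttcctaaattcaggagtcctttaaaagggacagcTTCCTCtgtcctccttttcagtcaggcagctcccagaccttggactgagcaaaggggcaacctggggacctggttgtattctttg
Stab1 (chr14:31168592-31168891, minus strand): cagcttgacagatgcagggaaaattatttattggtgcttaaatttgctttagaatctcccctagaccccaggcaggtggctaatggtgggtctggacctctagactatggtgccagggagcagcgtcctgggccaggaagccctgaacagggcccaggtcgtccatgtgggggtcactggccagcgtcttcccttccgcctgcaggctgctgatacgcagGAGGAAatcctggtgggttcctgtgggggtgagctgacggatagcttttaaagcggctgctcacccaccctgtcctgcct
F13a1 (chr13:37050195-37050494, minus strand, the upstream of its start sites): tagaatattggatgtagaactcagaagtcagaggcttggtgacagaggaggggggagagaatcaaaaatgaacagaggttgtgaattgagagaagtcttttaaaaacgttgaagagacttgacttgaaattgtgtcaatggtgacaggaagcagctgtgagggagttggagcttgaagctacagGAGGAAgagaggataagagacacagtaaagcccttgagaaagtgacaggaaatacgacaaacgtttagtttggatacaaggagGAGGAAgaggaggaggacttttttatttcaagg
Retnla (chr16:48842359-48842658, plus strand): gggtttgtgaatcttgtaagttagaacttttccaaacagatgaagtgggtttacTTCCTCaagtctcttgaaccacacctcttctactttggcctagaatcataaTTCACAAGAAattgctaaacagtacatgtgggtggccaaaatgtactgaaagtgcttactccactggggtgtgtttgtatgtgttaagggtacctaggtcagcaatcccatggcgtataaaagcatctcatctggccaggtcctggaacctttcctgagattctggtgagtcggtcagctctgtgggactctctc
Folr2 (chr7:101845282-101845581, minus strand, the downstream of its start sites): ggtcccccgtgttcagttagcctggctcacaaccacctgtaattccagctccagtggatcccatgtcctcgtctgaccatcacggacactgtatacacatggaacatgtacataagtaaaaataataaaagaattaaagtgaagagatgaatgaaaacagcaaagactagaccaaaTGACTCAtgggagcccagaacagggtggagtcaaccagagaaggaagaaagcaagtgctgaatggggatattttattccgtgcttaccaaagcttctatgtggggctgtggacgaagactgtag
The Mrc1 promoter held 3 matches to GAGGAA, at -180, -167 and -35 bases from the start site, the Stab1 promoter 1 at -30 and the F13a1 promoter 2 at -66 and 17. Of the 32851 promoters of the same length in the table, 28.3% held GAGGAA, so that the motif is common. The STAT6 motif was found in the Retnla promoter alone among these 7 genes, at -145, and in 6.95% of all promoters. TGANTCA stood at -74 in the downstream Folr2 promoter, and 7.81% of all promoters held it. ACGTG, the core of the hypoxia response element, was found only in the Cd163 promoter among the 7 genes, against 19.6% of all promoters. The upstream Folr2 promoter, not printed, held no match to any of these motifs. A match describes the letters of this window and no binding was measured.

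The first comparison asked how the members stood in ENZ against control within each class. A gene was compared when it reached 20 CPM in at least 1 of the 2 groups, and called higher or lower when the CPM differed by at least 1.5 times. In Mmp12-0 macrophages 7 members were compared, 6 were higher with ENZ (Mrc1, Msr1, Stab1, Cd163, Lyve1 and F13a1) and 0 were lower, beside 7.77% higher and 6.14% lower among all 6754 genes compared. Cd163 and Lyve1 reached 20 CPM in ENZ only, so that they could be compared only because they were high there, and of the 5 members at 20 CPM in both libraries 4 were higher and 0 lower, beside 6.37% and 4.7% of 5981 such genes. In Mmp12-high macrophages 5 were compared and 4 were higher (Mrc1, Msr1, Stab1 and F13a1) with 0 lower, against 13.2% and 8.63% of 6539 genes, and all 5 reached 20 CPM in both libraries (10.3% of 5645 such genes were higher and 6.48% lower). In monocytes 4 were compared and 3 were higher (Mrc1, Stab1 and F13a1) with 0 lower, against 7.69% and 4.81% of 6383 genes. Stab1 reached 20 CPM there in ENZ only, and its control level of 9.62 CPM was that of control T cells (9.72 CPM). Of the 3 members at 20 CPM in both libraries 2 were higher and 0 lower, beside 5.68% and 3.59% of 5650 such genes. The median log2 ratio of the members at 20 CPM in both libraries was 0.98, 0.85 and 0.78 in the 3 classes, beside 0.11, 0.10 and 0.06 over all such genes. Folr2 was the compared member outside the higher group in both macrophage classes, and Msr1 in monocytes.

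**Figure D1:**
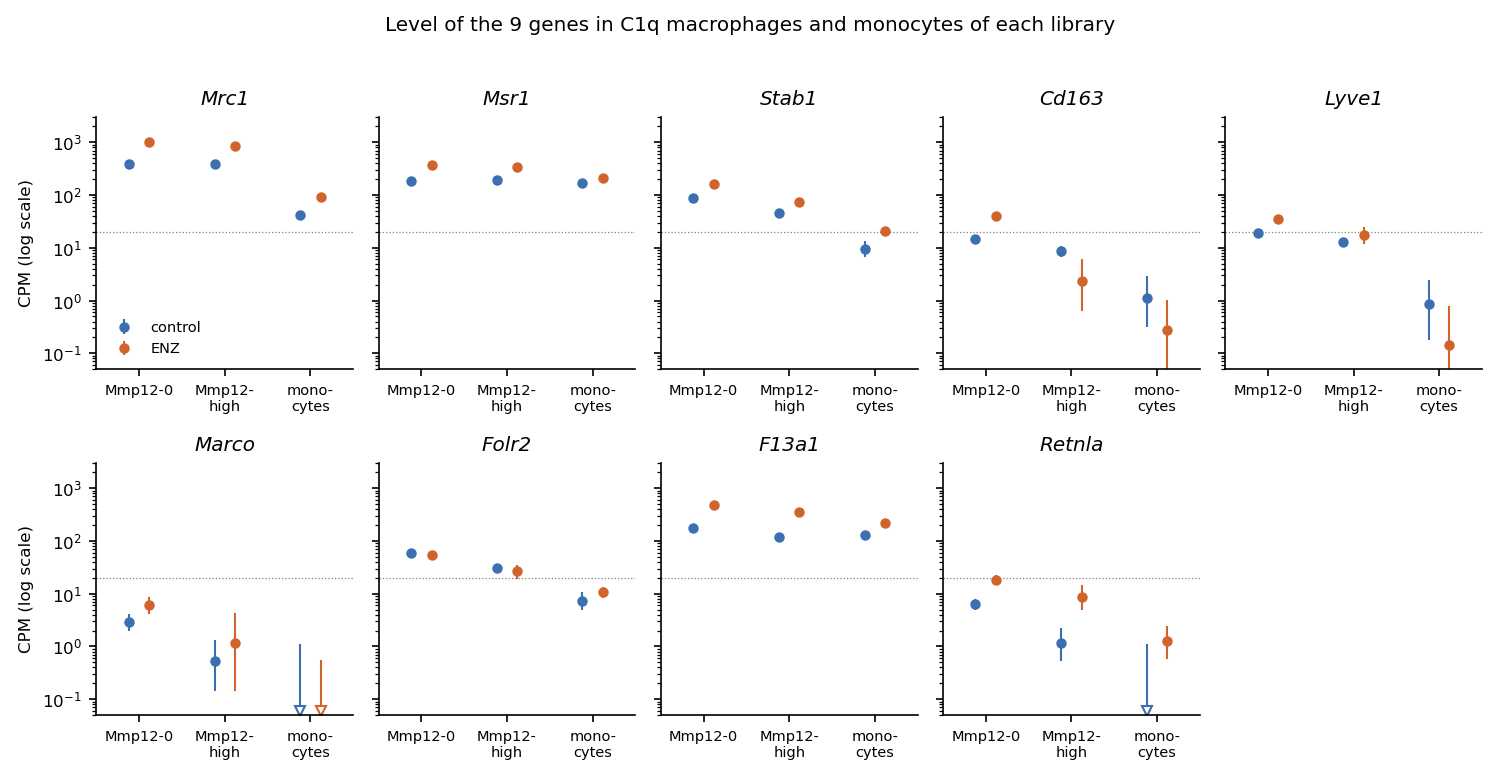
Level of each of the 9 genes (CPM, log axis) in Mmp12-0 macrophages, Mmp12-high macrophages and monocytes of the control and the ENZ library, with exact Poisson 95% intervals. Open triangles mark genes with 0 UMIs, and the dotted line is the 20 CPM needed for a comparison; Mrc1 and F13a1 stood higher with ENZ in all 3 classes, and Marco and Retnla stayed under the line throughout.

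**Figure D2:**
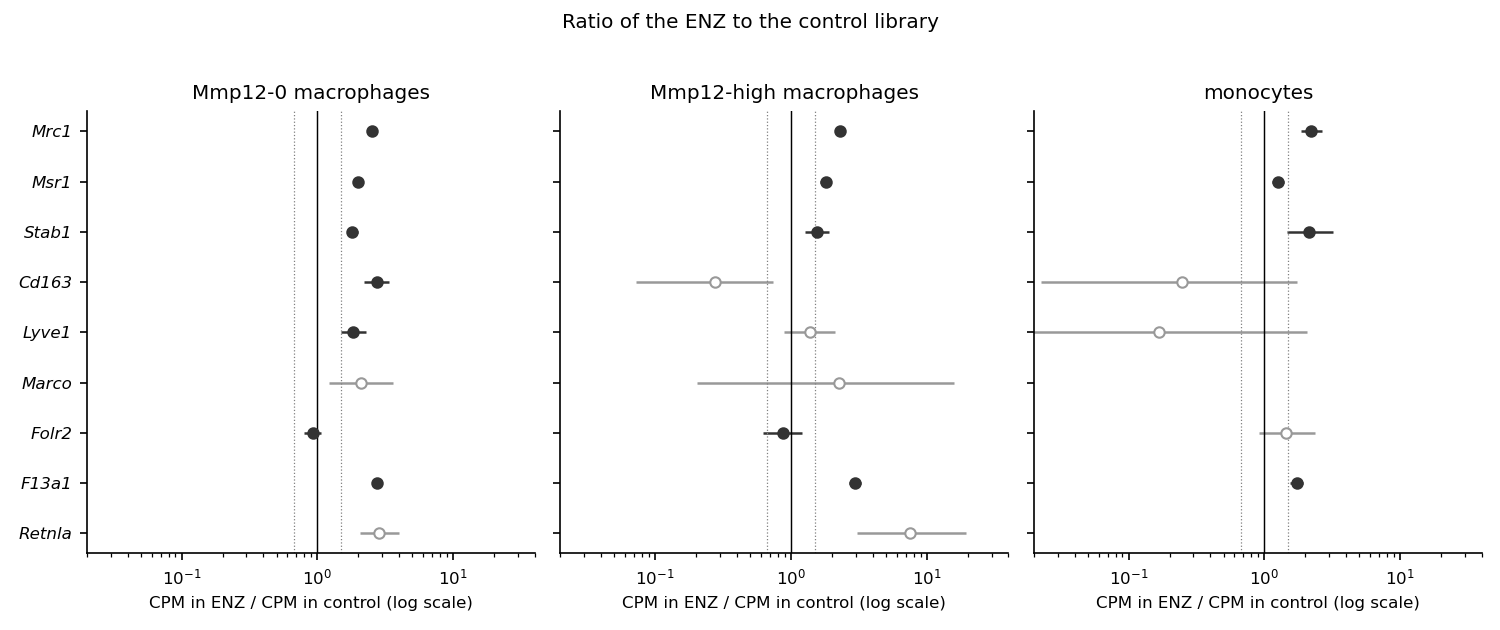
Ratio of ENZ to control (log axis) for each gene in the 3 classes, with exact conditional 95% intervals. Filled points are genes compared, open grey points are genes under 20 CPM in both libraries, and dotted lines mark a 1.5-fold difference; F13a1 reached 2.73 in Mmp12-0 and 2.95 in Mmp12-high macrophages while Folr2 lay just under 1 in both macrophage classes. Marco and Retnla have no point in monocytes, where a library had 0 UMIs.

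Mrc1 encodes the mannose receptor, which takes up glycoproteins with mannose ends (GRCm38 chromosome 2, 14229392 to 14332057, plus strand, protein coding). Its level in Mmp12-0 macrophages was 397 CPM in control and 999 CPM in ENZ, a ratio of 2.52 (2.42 to 2.62). In Mmp12-high macrophages it was 381 and 871 CPM, a ratio of 2.29 (2.15 to 2.44). In monocytes it was 41.9 and 92.4 CPM, a ratio of 2.21 (1.84 to 2.66). The ratio was thus near the same in 3 classes whose control levels spanned a wide range. Among all 6754 genes compared in Mmp12-0 macrophages Mrc1 had the 24th highest ratio. In the 272 control and 121 ENZ cells with 1 or 2 Mmp12 UMIs it stood at 345 and 596 CPM. Outside these classes, endothelial cells had 35.1 and 39.5 CPM, within counting error of each other, and cancer cells 3.51 and 3.21 CPM.

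Msr1 and Marco are class A scavenger receptors for modified lipoproteins and bacteria. Msr1 (chromosome 8, 39581685 to 39642673, minus strand) stood at 188 CPM in control and 372 CPM in ENZ Mmp12-0 macrophages, a ratio of 1.98 (1.85 to 2.11). In Mmp12-high macrophages it stood at 190 and 341 CPM, a ratio of 1.80 (1.63 to 1.98). In monocytes it stood at 169 and 212 CPM, a ratio of 1.25 (1.14 to 1.38), under the 1.5-fold limit. Msr1 was the member with the most even control level over the 3 classes. Marco (chromosome 1, 120474538 to 120505024, minus strand) was near the floor, with 30 UMIs each in control and ENZ Mmp12-0 macrophages (2.86 and 6.01 CPM), 4 and 2 UMIs in Mmp12-high macrophages and 0 in both monocyte libraries. A count of 0 allows up to 0.848 CPM in control and 0.422 CPM in ENZ monocytes, by a floor of 3 UMIs per library. The exact Poisson limits are higher, at 1.04 and 0.519 CPM.

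Stab1, or stabilin-1, clears acetylated lipoproteins and matrix fragments (chromosome 14, 31139013 to 31168641, minus strand). It stood at 87.8 CPM in control and 159 CPM in ENZ Mmp12-0 macrophages, a ratio of 1.81 (1.64 to 1.99). The levels were 46.7 and 72.9 CPM in Mmp12-high macrophages, a ratio of 1.56 (1.26 to 1.92). In monocytes they were 9.62 and 20.6 CPM, a ratio of 2.14 (1.46 to 3.20) on 34 and 146 UMIs. When each cell's CPM was averaged in place of summed UMIs, the log2 ratio of Stab1 in Mmp12-0 macrophages was 0.47 in place of 0.86, below the limit, so that its call depended on how cells were weighted. The call in Mmp12-high macrophages also ended under 7 alternatives, with log2 ratios between 0.12 and 0.55. In endothelial cells, which use the gene in many organs, the levels were 32.7 and 15.8 CPM.

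Cd163, the receptor for haemoglobin bound to haptoglobin (chromosome 6, 124304656 to 124330527, plus strand), stood at 14.5 CPM in control and 39.4 CPM in ENZ Mmp12-0 macrophages, a ratio of 2.73 (2.19 to 3.39). In Mmp12-high macrophages it stood at 8.58 and 2.35 CPM, on 66 and 4 UMIs, and was under the limit for a comparison. Monocytes had 4 UMIs in control and 2 in ENZ. Lyve1, a hyaluronan receptor of lymphatic vessels and resident macrophages (chromosome 7, 110850607 to 110863239, minus strand), stood at 18.9 and 34.6 CPM in Mmp12-0 macrophages, a ratio of 1.84 (1.49 to 2.26). It stood at 12.7 and 17.6 CPM in Mmp12-high macrophages and had 3 and 1 UMIs in monocytes. Both genes were thus read in Mmp12-0 macrophages only, and there on few cells. Cd163 was seen in 54 of 929 control and 48 of 578 ENZ cells, and 10 cells held 59.2% and 65.0% of its UMIs. Lyve1 was seen in 43 and 51 cells, with 64.6% and 52.6% of its UMIs in 10 cells, whereas the 10 cells highest in Msr1 held 7.38% and 10.2% of its UMIs. The counting intervals treat UMIs as independent and do not cover this spread between cells.

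Folr2, the folate receptor beta (chromosome 7, 101839988 to 101857194, minus strand), was the member closest to equal between the libraries. It stood at 59.7 CPM in control and 55.2 CPM in ENZ Mmp12-0 macrophages, a ratio of 0.926 (0.800 to 1.07). In Mmp12-high macrophages it stood at 30.1 and 26.4 CPM, a ratio of 0.877 (0.623 to 1.21). In monocytes, at 7.35 and 10.6 CPM, it was not compared. Both intervals exclude a level 1.5 times higher with ENZ. In Mmp12-high macrophages the ratio turned with the gates, to a log2 ratio of 0.73 when the gates were set per 1000 UMIs.

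F13a1 encodes the A subunit of coagulation factor XIII, a transglutaminase that macrophages and monocytes make (chromosome 13, 36867178 to 37050244, minus strand). It stood at 174 CPM in control and 475 CPM in ENZ Mmp12-0 macrophages, a ratio of 2.73 (2.57 to 2.91). In Mmp12-high macrophages it stood at 120 and 354 CPM, a ratio of 2.95 (2.66 to 3.28). In monocytes it stood at 127 and 219 CPM, a ratio of 1.72 (1.55 to 1.92). The monocyte ratio was the lowest of the 3 for this gene. It ended below the limit, at a log2 ratio of 0.55 in place of 0.78, when monocytes that also passed another gate were left out, while Mrc1 stayed above it.

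Retnla, the resistin-like protein alpha (chromosome 16, 48842551 to 48844461, plus strand), was under the limit, at 6.38 and 18.2 CPM in Mmp12-0 macrophages. All 67 control UMIs came from 10 cells, and 18 ENZ cells held the 91 UMIs there. It had 9 and 15 UMIs in Mmp12-high macrophages and 0 and 9 in monocytes.

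Transcripts of other lineages in these classes also differed between the libraries. In Mmp12-0 macrophages the 4 cancer markers summed to 458 CPM in control and 249 CPM in ENZ (highest gene Krt8, at 216 and 136 CPM). The 4 fibroblast markers summed to 421 and 199 CPM (Col3a1, at 209 and 109 CPM) and the 5 neutrophil markers to 919 and 355 CPM (S100a9, at 585 and 189 CPM). The 4 T cell markers summed to 35.2 and 30.8 CPM, the 4 endothelial markers to 62.9 and 73.3 CPM and the 3 B cell markers to 4.19 and 2.002 CPM, with Cd79a at 0 in ENZ as the only marker of these lists without a UMI. Control Mmp12-0 macrophages thus carried more transcripts of cancer cell, fibroblast and neutrophil markers than ENZ Mmp12-0 macrophages. In Mmp12-high macrophages the cancer, fibroblast and neutrophil lists summed to 267, 205 and 560 CPM in control and to 129, 130 and 509 CPM in ENZ, with Epcam and Ms4a1 at 0 in ENZ. In monocytes they summed to 209, 159 and 1742 CPM in control and to 253, 151 and 2079 CPM in ENZ, and the T cell markers to 139 and 113 CPM.

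Limits for markers of another lineage were set on keratin, Cd3, B cell, and collagen and Dcn UMIs, but not on neutrophil or endothelial markers. The neutrophil gate, which was thus not among these limits, was passed by 62 control (6.67%) and 11 ENZ (1.90%) Mmp12-0 macrophages. Cells past any of these limits made up 15.0% of control and 10.2% of ENZ Mmp12-0 macrophages, 16.4% and 8.24% of Mmp12-high macrophages, and 13.7% and 13.3% of monocytes. Without them the log2 ratio of ENZ to control in Mmp12-0 macrophages was 0.94 for Mrc1, 1.11 for Cd163, 1.1 for F13a1 and 0.60 for Msr1, all above the limit. Stab1, at 0.51, and Lyve1, at 0.28, were below the limit, and Folr2 stood at -0.50. In Mmp12-high macrophages Msr1, at 0.51, and Stab1, at 0.49, were then below the limit, with Mrc1 at 0.91 and F13a1 at 1.74. Of the 6 members higher in Mmp12-0 macrophages 4 were thus still higher, of the 4 in Mmp12-high macrophages 2, and of the 3 in monocytes 3. Retnla (11.56 CPM in control, 23.1 CPM in ENZ) in Mmp12-0 macrophages and Lyve1 (13.1 and 21.9 CPM) in Mmp12-high macrophages newly reached 20 CPM, in ENZ only, and are not counted here. Mrc1 and F13a1 therefore kept their side of the limit in all 3 classes. Without the cells of highest scrublet score, a doublet score, Stab1 in Mmp12-high macrophages was below the limit as well, at 0.48.

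Shares of cells with at least 1 UMI were compared after each cell had been thinned at random to 1000 UMIs, which no cell fell short of. In Mmp12-0 macrophages Mrc1 was seen in 27.6% of control and 48.1% of ENZ cells, a difference of 20.5 points (15.4 to 25.6). F13a1 was seen in 15.0% and 27.9% and Msr1 in 21.4% and 31.1%. The intervals of the difference lay above 0 for these 3 genes, as those of F13a1 (8.52 to 17.3 points) and Msr1 (5.05 to 14.4 points) show. Stab1 was seen in 10.3% and 12.1%, a difference of 1.78 points whose interval (-1.55 to 5.27) included 0, and Folr2 in 5.81% and 7.09%, likewise (-1.31 to 4.07). The Stab1 result depended on depth. In cells thinned to 3000 UMIs its difference was 9.15 points (4.29 to 14.1), and without thinning, at 33.7% and 41.0%, it was 7.31 points (2.19 to 12.4), both above 0. For Folr2 the interval included 0 at both of these depths as well. Without thinning Mrc1 was seen in 67.4% and 78.9% of Mmp12-0 macrophages.

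In Mmp12-high macrophages Mrc1 was seen in 31.0% of control and 42.4% of ENZ cells, a difference of 11.4 points (2.77 to 20.1). Without thinning, at 83.5% and 85.3%, its difference there was 1.83 points (-5.12 to 7.88), an interval that included 0. F13a1 was seen in 7.98% and 18.2%, 10.3 points apart (4.15 to 17.2), and Msr1 in 17.9% and 24.1%, 6.25 points apart (-0.914 to 14.1), an interval that included 0. Monocytes showed F13a1 in 13.6% and 18.5% of cells, 4.89 points apart (0.821 to 8.70), Msr1 in 15.7% and 20.7% and Mrc1 in 3.87% and 7.34%. T cells, which should lack these genes, had a median of 4116 UMIs in control and 4073 UMIs in ENZ before thinning. In thinned T cells Mrc1 was seen in 1.24% and 0.637% and F13a1 in 0.622% and 0.796% of cells, and without thinning Mrc1 was seen in 6.43% and 3.34%. The shares of both genes in macrophages stood well above these backgrounds in both libraries. Control monocytes, with Stab1 in 0.204% of cells, were at the level of T cells (0.622%), and ENZ monocytes, with 2.63%, were above theirs (0.318%).

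**Figure D3:**
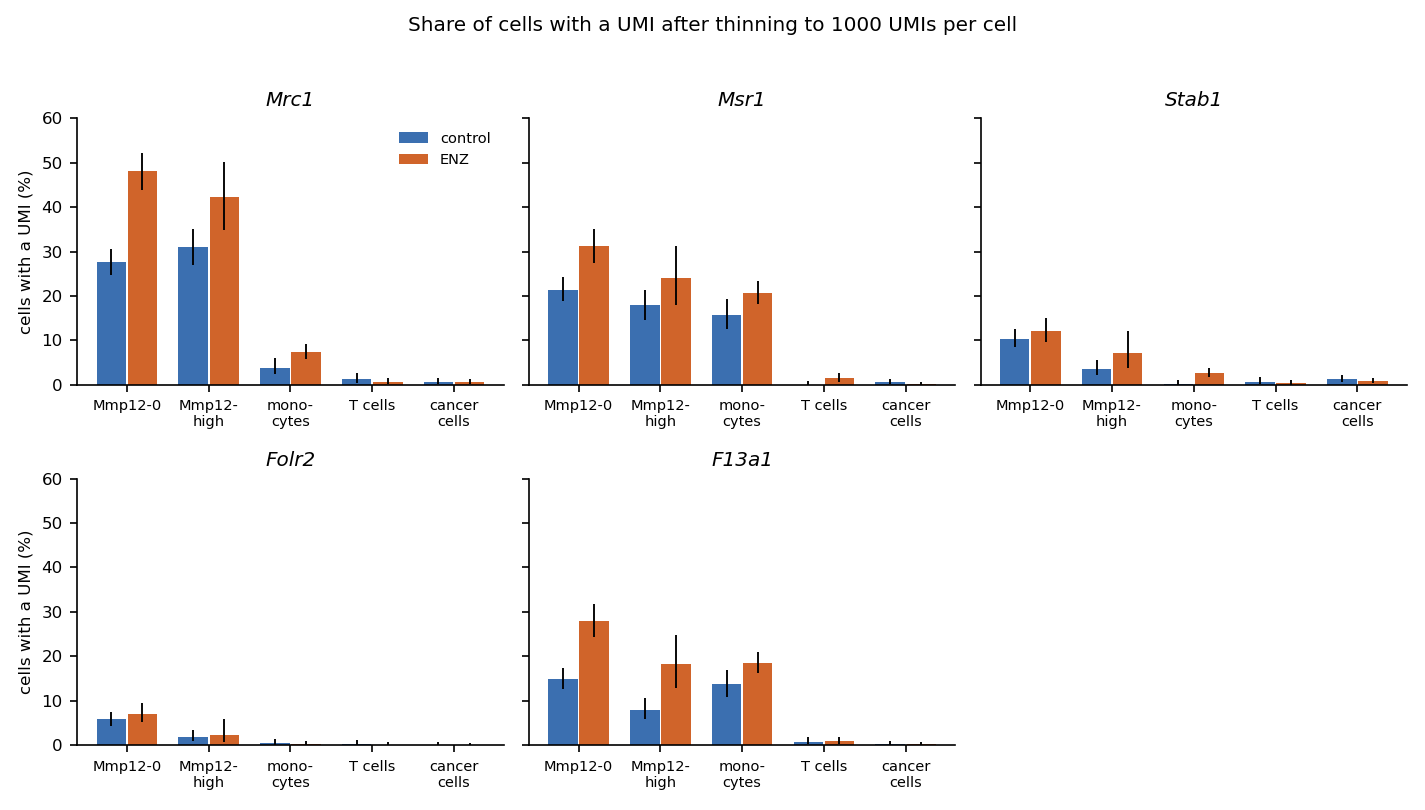
Percent of cells with at least 1 UMI after thinning to 1000 UMIs for Mrc1, Msr1, Stab1, Folr2 and F13a1 in the 3 classes and, as a background, in T cells and cancer cells of the control and ENZ libraries, with Clopper-Pearson 95% intervals. Mrc1 was seen in 48.1% of ENZ against 27.6% of control Mmp12-0 macrophages, while T cells stayed at or under 1.43% for the genes shown.

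Counted per cell, 48.1% of thinned control Mmp12-0 macrophages had none of the 9 genes and 7.43% (5.82 to 9.31) had 3 or more. In ENZ Mmp12-0 macrophages these shares were 29.1% and 14.9% (12.1 to 18.0). Cells with 3 or more members made up 3.61% (2.19 to 5.58) of control and 7.65% (4.13 to 12.7) of ENZ Mmp12-high macrophages. In monocytes they were 0 of 491 in control, which by a floor of 3 cells allows a share of up to 0.611%, and 5 of 1063 in ENZ, or 0.470%. The intervals of the libraries lay apart in Mmp12-0 macrophages and overlapped in Mmp12-high macrophages. Among T cells 0 of 482 control and 0 of 628 ENZ cells had 3 or more, which by the same floor allows shares of up to 0.622% and 0.478%. The Clopper-Pearson limits of these 3 counts of 0 are higher, at 0.748%, 0.762% and 0.586%.

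Within single cells Mrc1 was found with Stab1 and with F13a1 more often than the separate shares give. In thinned Mmp12-0 macrophages of the control library 53 cells (39.7 to 69.3) had both Mrc1 and Stab1, where the product of the separate shares gives 26.5, a ratio of 2.003. In the ENZ library 51 cells (38.0 to 67.1) had both, against 33.7, a ratio of 1.51. Mrc1 and F13a1 were together in 62 cells against 38.3 in control and in 111 cells against 77.4 in ENZ, ratios of 1.62 and 1.43. The largest possible ratio falls as a gene is found in more cells, so that ratios of different pairs, depths or libraries have no common scale. The correlation of presence of Mrc1 and F13a1 across these cells was 0.16 in control and 0.26 in ENZ. Mrc1 and Msr1 gave ratios of 1.29 and 1.21, on 71 cells (55.5 to 89.6) against 54.8 and 105 cells (85.9 to 127.1) against 86.6. The ENZ count was thus within counting error, which here is the Poisson interval of the count of cells with both genes. That interval does not use the counts of the separate genes and is wide for common genes, so that a count within it can still hold an excess. The correlation of presence of Mrc1 and Msr1 was 0.095 in control and 0.14 in ENZ. Msr1 and Stab1 were together in 27 cells (17.8 to 39.3) against 20.6 in control and 31 cells (21.1 to 44.0) against 21.8 in ENZ, both within counting error. F13a1 and Msr1 were together in 41 cells (29.4 to 55.6) against 29.8 in control, a ratio of 1.38, and in 50 cells (37.1 to 65.9) against 50.1 in ENZ, a ratio of 0.997. Mrc1 was thus seen beside Stab1 and F13a1 beyond counting error in both libraries. For F13a1 or Stab1 beside Msr1 the Poisson interval included the product of the separate shares at this depth in both libraries. In cells thinned to 3000 UMIs, which left out 112 control and 81 ENZ cells, the order of the pairs differed. Some pairs under the limit of 20 expected cells had higher ratios than those over it. Folr2 with Stab1, for example, stood at 2.802 in control (56 cells against 19.99) and 2.17 in ENZ (32 cells against 14.75). Among pairs with at least 20 expected cells, F13a1 with Folr2 gave the highest ratio in each library. It was 2.46 in control, on 63 cells (48.4 to 80.6) against 25.6. In ENZ it was 1.68, on 41 cells (29.4 to 55.6) against 24.4. F13a1 with Stab1 followed at 1.92 (74 cells against 38.6) and 1.44 (95 cells against 66.1). Mrc1 with Cd163 came next in ENZ, at 1.404 on 29 cells (19.42 to 41.65) against 20.66, within counting error, although all 29 ENZ cells with Cd163 also had Mrc1. In control its 12.08 expected cells were under the limit. Mrc1 with Folr2 gave 1.56 and 1.24, the latter on 46 cells (33.68 to 61.36) against 37.04, within counting error. The correlation of presence of this pair was 0.22 in control and 0.13 in ENZ. Mrc1 with Stab1 gave 1.48 and 1.25. Mrc1 with F13a1 gave 1.35 and 1.14, the latter on 190 cells (163.9 to 219) against 166, also within this Poisson interval. The correlation of presence of Mrc1 and F13a1 was nonetheless 0.21 in each library. At that depth F13a1 with Msr1 stood at 120 cells (99.5 to 143.5) against 96.7 and Msr1 with Stab1 at 94 (75.96 to 115) against 75.5 in control, both just beyond counting error, and in ENZ both pairs were within it. Folr2 with Msr1, at 69 cells (53.7 to 87.3) against 50.03, a ratio of 1.38, was also beyond it in control. So was Mrc1 with Msr1, at 237 cells (207.8 to 269.2) against 206.4. In ENZ these pairs too were within it. The correlation of presence of Mrc1 and Stab1 across the thinned cells was 0.21 in control and 0.18 in ENZ, within 1 library each and with cells of differing C1q content.

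In ENZ monocytes F13a1 and Msr1 were together in 51 cells (38.0 to 67.1) against 40.8, a ratio of 1.25 within counting error, and at 3000 UMIs in 184 cells (158.4 to 212.6) against 158.3, just beyond it. F13a1 was seen in 11.5% (5.41 to 20.8) of the 78 ENZ monocytes that had Mrc1 and in 19.1% (16.7 to 21.7) of the 985 that lacked it. At 3000 UMIs these monocytes had both Mrc1 and F13a1 in 49 cells (36.2 to 64.8) against 50.1, so that no excess of the pair was detectable. In Mmp12-high macrophages at that depth the pair stood at 65 cells (50.2 to 82.8) against 55.6 in control and 40 (28.6 to 54.5) against 39.7 in ENZ, within counting error.

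**Figure D4:**
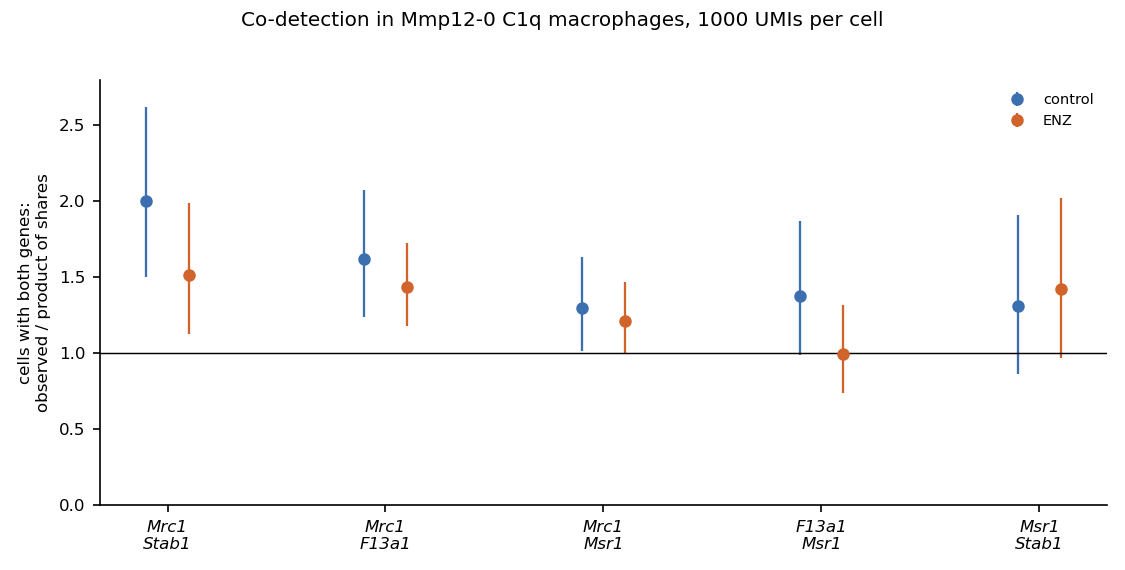
Ratio of observed to expected cells with both genes in Mmp12-0 macrophages of each library thinned to 1000 UMIs, for pairs with at least 20 expected cells, with bars from the Poisson 95% interval of the observed count. Mrc1 with Stab1 stood at 2.003 in control and 1.51 in ENZ, and Mrc1 with F13a1 at 1.62 and 1.43. The largest possible ratio falls as a gene is found in more cells, and Mrc1 was found in a larger share of ENZ cells.

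Cd163, Lyve1 and Folr2 were often found in the same cells. Before thinning, Lyve1 was seen in 35.2% of control and 35.4% of ENZ Mmp12-0 macrophages with Cd163, against 2.74% and 6.42% of those without. Folr2 was seen in 70.4% and 62.5% of cells with Cd163, against 18.2% and 16.4% of those without. F13a1 was seen in 79.6% and 91.7% with Cd163 and in 35.5% and 55.8% without. Cells with Cd163 were deeper, with medians of 8393.5 UMIs in control and 9000 UMIs in ENZ, against 7199 and 6657 in those without. At equal depth the counts were small, and all pairs below had fewer than the 20 expected cells asked of a pair above. In cells thinned to 1000 UMIs Cd163 and Folr2 were together in 7 cells (2.81 to 14.4) in each library, against 0.581 expected in control and 0.922 in ENZ. In cells thinned to 3000 UMIs Cd163 and Lyve1 were together in 8 cells (3.45 to 15.8) against 0.591 in control and 11 cells (5.49 to 19.7) against 1.58 in ENZ. At 1000 UMIs Cd163 and Lyve1 were together in 1 control cell (0.0253 to 5.57) against 0.108, an interval that included the expected count. In ENZ they were together in 3 cells (0.619 to 8.77) against 0.202. Lyve1 and Folr2 were together at 1000 UMIs in 6 cells (2.20 to 13.1) against 0.581 in control and 5 cells (1.62 to 11.7) against 0.638 in ENZ. Apart from that 1 control cell, these counts lay above the expected ones at equal depth as well. For Retnla the cells were too few for such a statement: in ENZ Cd163 was seen in 2 of the 18 cells with Retnla (11.1%, 1.38 to 34.7) and in 8.21% of those without.

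The second comparison set Mmp12-high against Mmp12-0 macrophages within each library. In the control library 5 members were compared, 0 were higher and 2 were lower in Mmp12-high cells, beside 2.11% higher and 3.67% lower of 6449 genes. In the ENZ library 7 were compared, 0 were higher and 4 were lower, beside 3.54% and 6.46% of 6676 genes. Cd163 and Lyve1 reached 20 CPM in Mmp12-0 cells only there. Of the members at 20 CPM in both classes 2 of 5 were lower and 0 higher in each library. Of all such genes 2.3% of 5876 were lower and 1.46% higher in control, and 3.45% of 5918 lower and 2.35% higher in ENZ. The median log2 ratio of these members was -0.53 and -0.42, against -0.05 over all such genes in both. Stab1 (0.531 in control, 0.458 in ENZ) and Folr2 (0.505 and 0.479) were lower in Mmp12-high macrophages of both libraries. In ENZ, Lyve1 (0.509, 0.333 to 0.753) and Cd163 (0.0596, 0.0161 to 0.155, on 4 against 197 UMIs) were lower as well.

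Mrc1 and Msr1 hardly differed by Mmp12 level. Mrc1 had ratios of 0.958 (0.914 to 1.01) in control and 0.871 (0.822 to 0.924) in ENZ, and Msr1 of 1.01 (0.941 to 1.08) and 0.918 (0.835 to 1.01). F13a1 was lower at 0.691 and 0.747, short of the limit. Mrc1 and Msr1 were thus nearly level over both macrophage classes, and Stab1 and Folr2 were lower in Mmp12-high cells. Without cells that carried markers of another lineage, F13a1 in control passed the limit, at a log2 ratio of -1.18 in place of -0.53. A gate in UMIs selects deeper cells for the Mmp12-high class. With gates set per 1000 UMIs, 5 members were lower in control in place of 2 (Cd163 and Lyve1 among them reached 20 CPM in Mmp12-0 cells only), and F13a1 was then among the lower genes in both libraries, at log2 ratios of -1.59 and -1.34. In cells with at least 5 C1q UMIs per 1000, Mrc1 was lower as well, at -0.70 and -0.72.

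The third comparison set Mmp12-0 macrophages against monocytes. In the control library 3 of 5 members were higher and 0 lower, beside 9.28% higher and 5.51% lower of 6551 genes. In the ENZ library 7 of 7 were higher and 0 lower, beside 10.8% and 4.89% of 6685 genes. Stab1 in control, Cd163 and Lyve1 in ENZ and Folr2 in both reached 20 CPM in macrophages only. Of the members at 20 CPM in both classes 1 of 3 was higher in control and 4 of 4 in ENZ, with 0 lower. Of all such genes 5.56% of 5687 were higher and 4.31% lower in control, and 7.02% of 5839 higher and 3.55% lower in ENZ. The median log2 ratio of these members was 0.45 and 2.03, against 0.03 and 0.04 over all such genes. Mrc1 (9.49 in control, 10.8 in ENZ), Stab1 (9.13 and 7.73) and Folr2 (8.12 and 5.23) were far higher in macrophages in both libraries. Lyve1 and Cd163 rested on 1 and 2 monocyte UMIs in ENZ, with ratios of 246 (43.6 to 9771) and 140 (38.3 to 1165). F13a1 (1.36 and 2.17) and Msr1 (1.11 and 1.75) were closer to level, and in control both ratios turned below 1 when monocytes that also passed another gate were left out (log2 ratios of -0.10 and -0.39). Other gates moved them up: in macrophages with at least 5 C1q UMIs per 1000 the control log2 ratios were 1.79 for F13a1 and 1.05 for Msr1, and F13a1 also passed the limit with at least 10 C1q UMIs (0.70) and with at least 5000 UMIs per barcode (0.63). In ENZ, without the monocytes that also passed another gate, Msr1 stood at 0.45, below the limit. Among members at 20 CPM in both classes, Mrc1 was thus higher in macrophages in both libraries, and Stab1 in ENZ. Folr2 in both libraries and Stab1 in control could be compared only because they were high in macrophages. Msr1 and F13a1 were also read in monocytes, with a ratio that depended on the gates.

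Within C1q macrophages the members were read along the C1q level itself, in 4 bins of C1q UMIs per 1000. Mrc1 in control was at 134 CPM in the 495 cells under 2, at 436 in the 657 cells from 2 to 5, at 768 in the 444 cells from 5 to 10 and at 941 CPM in the 131 cells at 10 or more. In ENZ it was at 338, 985, 1783 and 1984 CPM in 271, 365, 210 and 23 cells. Mrc1 was higher in each bin than in the bin below it in both libraries, apart from the top 2 ENZ bins, whose intervals overlap. The ratio of ENZ to control was 2.53, 2.26, 2.32 and 2.11 from the lowest bin to the highest. Folr2 had a steeper profile, from 12.6 to 185 CPM in control and from 12.8 to 274 CPM in ENZ. F13a1 ran from 60.5 CPM in the lowest bin to 365 CPM in the highest in control, and in ENZ it stood at 179, 454, 794 and 654 CPM. The ratio of F13a1 was between 1.79 and 3.70 in the 4 bins, so that the difference between libraries was present at each C1q level for both genes.

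**Figure D5:**
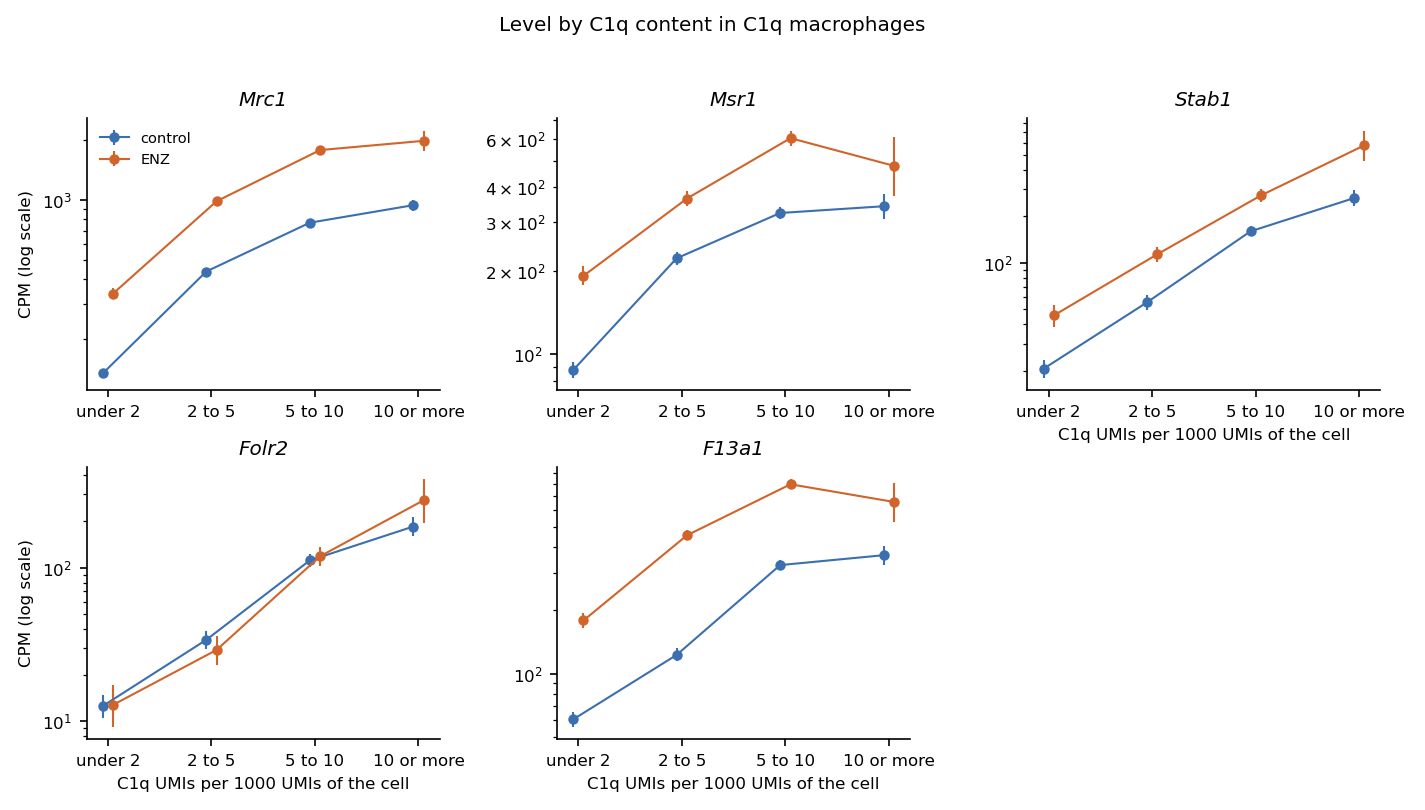
Level (CPM, log axis) of Mrc1, Msr1, Stab1, Folr2 and F13a1 in C1q macrophages binned by C1q UMIs per 1000 UMIs, in the control and the ENZ library, with exact Poisson 95% intervals. Mrc1 in control stood at 134 CPM in the lowest and 941 CPM in the highest bin, and F13a1 in ENZ was highest in the bin from 5 to 10, at 794 CPM.

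C1q macrophages with monocyte transcripts differed from those without. Among cells with at least 5 UMIs of Ly6c2 and Chil3 (138 control, 185 ENZ), Folr2 stood at 66.4 CPM in control and 22.3 CPM in ENZ, a ratio of 0.336 (0.236 to 0.470). Among cells with 0 such UMIs (1223 and 455), it stood at 46.8 and 58.4 CPM, a ratio of 1.25 (1.07 to 1.46). Folr2 was thus lower with ENZ in the former cells and higher in the latter, there short of the 1.5-fold limit. The difference between them was not tested. Cd163 had a ratio of 0.876 in the former, with an interval (0.533 to 1.42) that included 1, and 3.47 (2.77 to 4.35) in the latter. F13a1 was higher with ENZ in both, with 2.04 and 2.95.

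Related lists set the members in context. Of 16 other genes of alternative activation 12 were compared in Mmp12-0 macrophages, and 6 were higher with ENZ and 0 lower (7.77% and 6.14% of all genes). At 20 CPM in both libraries 6 of 11 were higher (6.37% of such genes), with a median log2 ratio of 0.65 against 0.11 over all such genes. In the lists below, too, a gene at 20 CPM in 1 group only could be compared only because it was high there. Ccl24, an eosinophil chemokine induced by interleukin-4, stood at 136 CPM in control and 890 CPM in ENZ, a ratio of 6.52 (6.14 to 6.93), above that of each member. Il10, an anti-inflammatory cytokine, stood at 34.3 and 60.9 CPM (1.78), while Vegfa, an angiogenic factor, was level (0.936). In monocytes Ccl24 stood at 84.0 and 728 CPM, a ratio of 8.67 (7.71 to 9.78). Mmp12-high macrophages had a ratio of 4.94 for Ccl24 and 2.82 for Pdcd1lg2, a ligand of the inhibitory receptor PD-1. Pdcd1lg2 reached 20 CPM there in ENZ only. In each library Ear2, a ribonuclease, was higher in Mmp12-high than in Mmp12-0 macrophages, with ratios of 3.83 and 6.49. In control Ear2 reached 20 CPM in Mmp12-high cells only.

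Of 9 genes of arginine metabolism 7 were compared in Mmp12-0 macrophages and 1 was higher, where 7.77% of all genes were, so that the count is near the background. The higher gene was Slc7a2, a cationic amino acid transporter, at 6.76 CPM in control and 52.4 CPM in ENZ, a ratio of 7.76 (5.95 to 10.2). It was also higher in Mmp12-high macrophages (23.0 and 103 CPM, 4.47) and in monocytes (7.35 and 30.4 CPM, 4.14). Srm, or spermidine synthase, had a ratio of 0.794 in Mmp12-0 macrophages. Slc7a2 reached 20 CPM in Mmp12-0 macrophages and monocytes in ENZ only, and of the 6 genes of the list at 20 CPM in both libraries of Mmp12-0 macrophages 0 were higher.

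Of 18 other scavenger and uptake receptors 11 were compared in Mmp12-0 macrophages, and 3 were higher and 0 lower (7.77% and 6.14% of all genes). At 20 CPM in both libraries 1 of 8 was higher (6.37% of such genes), with a median log2 ratio of 0.20. Olr1, a receptor for oxidized lipoprotein, stood at 17.9 and 48.0 CPM (2.68), Siglec1, or sialoadhesin, at 13.8 and 25.2 CPM (1.83), and Colec12, a scavenger receptor with a collagen-like domain, at 23.9 and 18.2 CPM (0.762). In monocytes Olr1 stood at 15.0 and 87.4 CPM, a ratio of 5.83 (4.40 to 7.88). Of 13 genes of resident-like macrophages 11 were compared and 2 were higher (7.77% of all genes), and at 20 CPM in both libraries 2 of 10 were, with a median of 0.28. Gas6, a bridging ligand for apoptotic cells, had a ratio of 1.78 and the chemokine Ccl8 1.72, whereas Apoe, the lipid carrier, was lower at 5314 and 3861 CPM (0.727), short of the limit. Among these resident-like genes 5 of 10 in control and 6 of 11 in ENZ were lower in Mmp12-high than in Mmp12-0 macrophages (3.67% and 6.46% of all genes), and at 20 CPM in both classes 4 of 8 and 5 of 10. Against monocytes, 9 of 10 and 11 of 11 were higher in Mmp12-0 macrophages (9.28% and 10.8% of all genes), and at 20 CPM in both classes 4 of 5 and 4 of 4.

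Over 22 points (the gated classes of at least 50 cells in both libraries), the genes whose log2(CPM + 10) was most like that of each member were named among 6064 genes. Mrc1 was most like C3ar1 (Pearson's r of 0.98), Itga9 and Trem2. F13a1 was most like Msr1 (0.99), Cmklr1 and Ms4a4a. Stab1 was most like Itga9 (0.96), and Folr2 most like Ms4a7 (0.97). Lyve1 (0.99) and Cd163 were both most like Fcna, a ficolin. The points share libraries, and the macrophage classes hold similar cells, so the points are not independent. UMI counts of 3′ libraries do not scale with gene length, and levels were compared within genes.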

How the data were processed

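Droplet-based scRNA-seq of 1 control and 1 ENZ tumor library was used. The deposited values are raw counts of UMIs, listed for all barcodes, which the authors had neither filtered nor normalized. The submitters' processing notes name Cell Ranger 2.1.1 and mm10, whereas the header of the deposited files names Cell Ranger 7.2.0; the reason is not given in the sources used here, and neither version was used in a step. Positions came from GENCODE M21 on GRCm38.

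From these counts, barcodes with at least 1000 UMIs and at most 20% mitochondrial UMIs were gated on single genes into classes, as given above. The other classes used the same kind of gate, and a cell that passed the gates of more than 1 class outside the 3 studied was left out of all of them. Doublets were not removed in the values reported, and alternatives left them out. Summed UMIs of a class were scaled to CPM. Their intervals were exact Poisson, those of ratios exact conditional binomial, those of shares Clopper-Pearson and those of share differences Newcombe's, at 95%. They cover counting error only. No p-value is given, since cells are not replicates. Each share used cells thinned once, at random, to 1000 UMIs. Members, lists and rules were chosen with earlier results of these data known. Of the rule, 1 gene of 10 and 1 gene of the related and marker lists are not reported here and were left out of all counts and medians. Named genes were the other 9 members, at most 4 of each related list in a comparison (those with the highest and lowest ratios) and the 3 genes most like each member. Alternatives covered the UMI and mitochondrial limits, the gates, doublets, the weighting of cells, free RNA, the CPM denominator and scaling, shared barcodes, the floor, the fold and the thinning. Alternatives of C1q macrophages with at least 5 C1q UMIs per 1000 and of 20 CPM in both groups were added after seeing the data. Intervals and thinning were tested on simulated data. Python 3.11.15, numpy 2.4.6, scipy 1.17.1, pandas 2.3.3, scanpy 1.11.5 (scrublet) and matplotlib 3.10.9 were used.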

Additional observations from a re-analysis of the deposited data

Results flagged for a closer look

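Cd163 differed in direction between the macrophage classes. The log2 ratio of ENZ to control was 1.45 in Mmp12-0 macrophages (14.5 and 39.4 CPM) and -1.87 in Mmp12-high macrophages (8.58 and 2.35 CPM), where ENZ had 4 UMIs in 170 cells. The difference between the classes was not tested, and in Mmp12-high macrophages the gene was under the level needed for a comparison.

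Barcodes of 10 to 100 UMIs, which hold mostly RNA from outside cells and entered no comparison, also differed between the libraries. They numbered 17560 in control and 18354 in ENZ, with means of 53.6 and 68.2 UMIs. Mrc1 stood there at 92.4 CPM in control and 174 CPM in ENZ, a ratio of 1.89. F13a1 stood at 56.3 and 91.1 CPM, a ratio of 1.62, and Cd163 at 6.37 and 18.4 CPM, a ratio of 2.88 on 6 and 23 UMIs. Lyve1 was also higher in ENZ there, at 10.6 and 19.2 CPM on 10 and 24 UMIs. Retnla stood at 12.7 and 15.2 CPM on 12 and 19 UMIs. Folr2 (31.9 and 27.2 CPM), Stab1 (32.9 and 28.8 CPM) and Msr1 (69.1 and 69.5 CPM) were nearly level. When the profile of these barcodes was subtracted from each class, the log2 ratio of Mrc1 in Mmp12-0 macrophages was 1.34, beside 1.33 without subtraction. Only the mean load of such a barcode, 53.6 UMIs in control and 68.2 in ENZ, was subtracted per cell. Beside medians of 7263 and 6821.5 UMIs per Mmp12-0 macrophage this is little, so that the ratio could hardly move. A larger share of free RNA was not tested.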

How the results depend on the processing

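No paired analysis was possible because there was 1 library in each group. No result reversed among the called ratios. Counts of members called were within 1.5 times of the reported count in 232 cases and not in 20, and 472 member ratios stayed within their counting interval while 123 moved outside it. Of the differences in share, 16 stayed within their interval at another depth and 14 did not, and of the ratios of cells with both genes 10 did and 2 did not. With a C1q gate of at least 10 UMIs, 4 members were lower in Mmp12-high than in Mmp12-0 control macrophages in place of 2, and 5 were higher in control Mmp12-0 macrophages than in monocytes in place of 3. With gates per 1000 UMIs these counts were 5 and 5. Without cells with markers of another lineage, they were also 5 and 5. Without the highest scrublet scores 4 were lower in Mmp12-high control macrophages. With cells weighted equally 4 were lower there, and with rRNA-like, ribosomal protein and mitochondrial genes left out of the CPM 5 were higher than in monocytes. With a floor of 5 CPM, 1 in place of 0 was lower with ENZ in Mmp12-high macrophages, 4 were lower in Mmp12-high control macrophages and 6 higher than in monocytes. With a fold of 2, 3 in place of 6 were higher with ENZ in Mmp12-0 macrophages and 2 in place of 4 in Mmp12-high macrophages, and 0 in place of 2 were lower in Mmp12-high against Mmp12-0 control macrophages. In the added alternative of at least 5 C1q UMIs per 1000, 6 were lower in Mmp12-high control macrophages and 7 were higher in control macrophages than in monocytes. With 20 CPM asked of both groups, also added after the data were seen, 2 in place of 4 were lower in Mmp12-high ENZ macrophages, and 1 in place of 3 in control and 4 in place of 7 in ENZ were higher in Mmp12-0 macrophages than in monocytes. Where other gates raised a count, Lyve1, Cd163 or Retnla had often newly reached 20 CPM in 1 group only. The floor and the fold change counts by construction, and for the other settings the cause was not tested. Over all 15 alternatives that gave a ratio, the log2 ratio of ENZ to control in Mmp12-0 macrophages was 0.94 to 1.37 for Mrc1 and 0.99 to 1.48 for F13a1. Depth limits Cd163, Lyve1, Marco and Retnla, which rested on few cells.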

Other observations

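Retnla, too low for a comparison, was carried by very few cells. A single Mmp12-0 macrophage held 28 of its 67 UMIs in control, and a single one held 50 of its 91 UMIs in ENZ. The endothelial gate (136 control and 119 ENZ cells) had Stab1 at 32.7 CPM (24.7 to 42.6) in control and 15.8 CPM (10.5 to 22.8) in ENZ. Neutrophils had Mrc1 at 24.8 CPM (18.9 to 32.0) in control and 10.5 CPM (4.52 to 20.6) in ENZ, with overlapping intervals.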
